A study of Mus musculus with 10 samples.

Results

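The 10 genes described here encode chemokine ligands. Cxcl9 and Cxcl10 are of the interferon type, Cxcl1, Cxcl2 and Cxcl5 of the neutrophil type, and Cxcl12, Cxcl16 and Ccl28 are homeostatic or tissue ligands, while Ccl2 and Ccl20 attract monocytes and lymphocytes. They were chosen by symbol among the 24062 genes counted in the pancreas of 10 mice, and all 10 were found. Of these mice, 5 were wild type (WT) littermate controls and 5 were KSR23, all of strain C57BL/6 and taken at postnatal day 5 (P5). KSR23 mice carry R23, a knock-in of both IL-23 subunits at ROSA26 that is silent until a floxed stop is removed, and a Cre recombinase that the keratin 14 promoter drives, which puts the cytokine in keratinocytes. Whole pancreas was sequenced, so fewer cells of a type and less RNA per cell cannot be told apart. The labels number the replicates, and each library was taken as 1 mouse.

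Chemokines are small secreted proteins that bind G protein-coupled receptors on leukocytes and guide the cells along a gradient. Ligands with a glutamate-leucine-arginine stretch before the first cysteines act through CXCR2 on neutrophils, and the interferon-type ligands act through CXCR3 on activated T and NK cells. CXCL12 is made without a stimulus by stromal cells, whereas CCL20 is made by epithelium exposed to IL-17, TNF or microbial products and acts through CCR6.

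The IL-23 subunit genes were read first as a check of the labels. Il23a, the p19 subunit, had 0.21, 0.137, 0.316, 0.194 and 0.0373 CPM (gene counts scaled to a common library size of 1000000) in WT replicates 1 to 5 and 1.21, 1.04, 1.17, 1.07 and 0.857 CPM in KSR23 replicates 1 to 5. The groups did not overlap (exact permutation of the mice, two-sided, p = 0.00794, the smallest that 5 mice against 5 allow). Il12b, the p40 subunit, had 0 to 0.24 CPM in WT and 0.0889 to 0.327 CPM in KSR23 mice, and these ranges overlapped (exact permutation test, p = 0.0952, and p = 0.0159 without WT replicate 2). Gene counts per library summed to 16715976 at the least and 57784136 at the most, and 3 counts, taken as the lowest level a library can show, came to between 0.0536 and 0.168 CPM. Acinar, duct and islet marker genes were present in every library, while of 2 keratinocyte markers Krt5 had no count in any and Krt14, whose promoter drives the Cre, was at 1.03 to 2.98 CPM in WT and 1.46 to 2.67 CPM in KSR23 mice and was not called.

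The largest rises among the ligands were those of Cxcl5, which attracts neutrophils, and Ccl20. Cxcl5 was at 28.6 times and Ccl20 at 21.5 times its WT mean. Cxcl16 reached 3.81 times and Cxcl10 2.03 times the WT mean, and Ccl2, a major ligand of monocytes, was at 0.985 times. In edgeR's quasi-likelihood test over the 13882 genes that reached 5 counts in each library, with Benjamini-Hochberg adjustment over all of them, 16.2% of genes were higher and 14.8% lower in KSR23 mice at an adjusted p under 0.05. That was 2250 genes higher against 2049 lower, and 3075 against 1161 when libraries were scaled by their total alone. Of the 10 ligands 5 passed that filter, of which Cxcl5, Cxcl16, Cxcl10 and Cxcl12 were higher, 0 were lower and Ccl2 was not called. The other 5 had under 5 counts in at least 1 library. In a fit over all 19227 genes with at least 1 count, in which all 10 ligands were tested, 7 were higher and 0 lower, beside 12.0% and 10.9% of all genes. Those 7 were Cxcl5, Ccl20, Cxcl16, Cxcl10, Cxcl1, Cxcl9 and Cxcl12, and Cxcl2, Ccl28 and Ccl2 did not pass. Over 16 alternative settings of this fit the number was 4 to 7. It was 5 with a replicate block, and 5 without WT replicate 1, 3 or 4 or KSR23 replicate 1 or 3. Without KSR23 replicate 4 it was 4, as Cxcl9, Cxcl12 and Cxcl10 (adjusted p = 0.0518) missed the threshold. The median log2 fold change of the 10 ligands in this fit was 1.29, and that of all genes was -0.004. For 4 of the 10, Cxcl5, Cxcl10, Cxcl16 and Ccl20, every KSR23 mouse was above every WT mouse, which held for 8.53% of the 19227 genes.

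**Figure D1:**
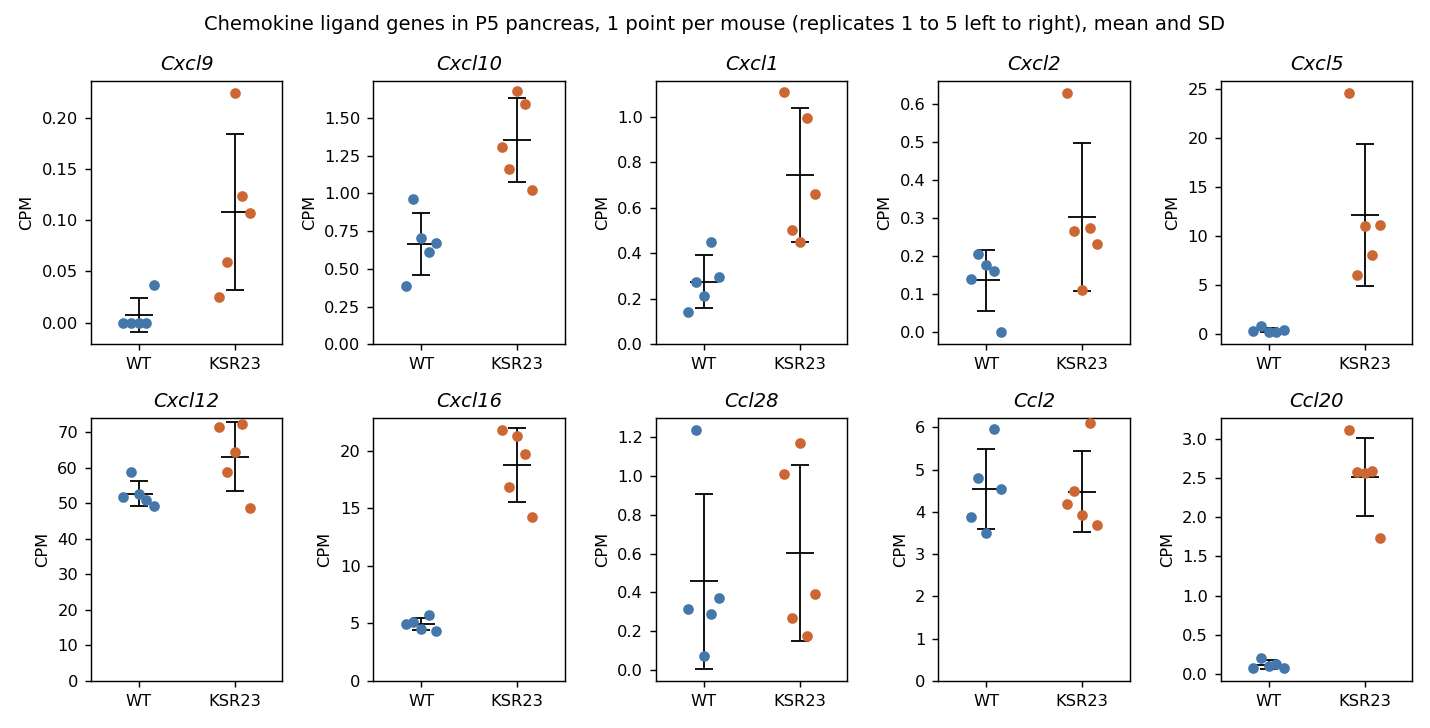
CPM of each ligand (vertical axis, linear, scaled for each gene) in WT and KSR23 mice, with 1 point per mouse and the mean and SD of 5 mice in black. Cxcl5, Ccl20, Cxcl16 and Cxcl10 are separated between the groups, while Ccl2 lies between 3.51 and 6.1 CPM over both.

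**Figure D2:**
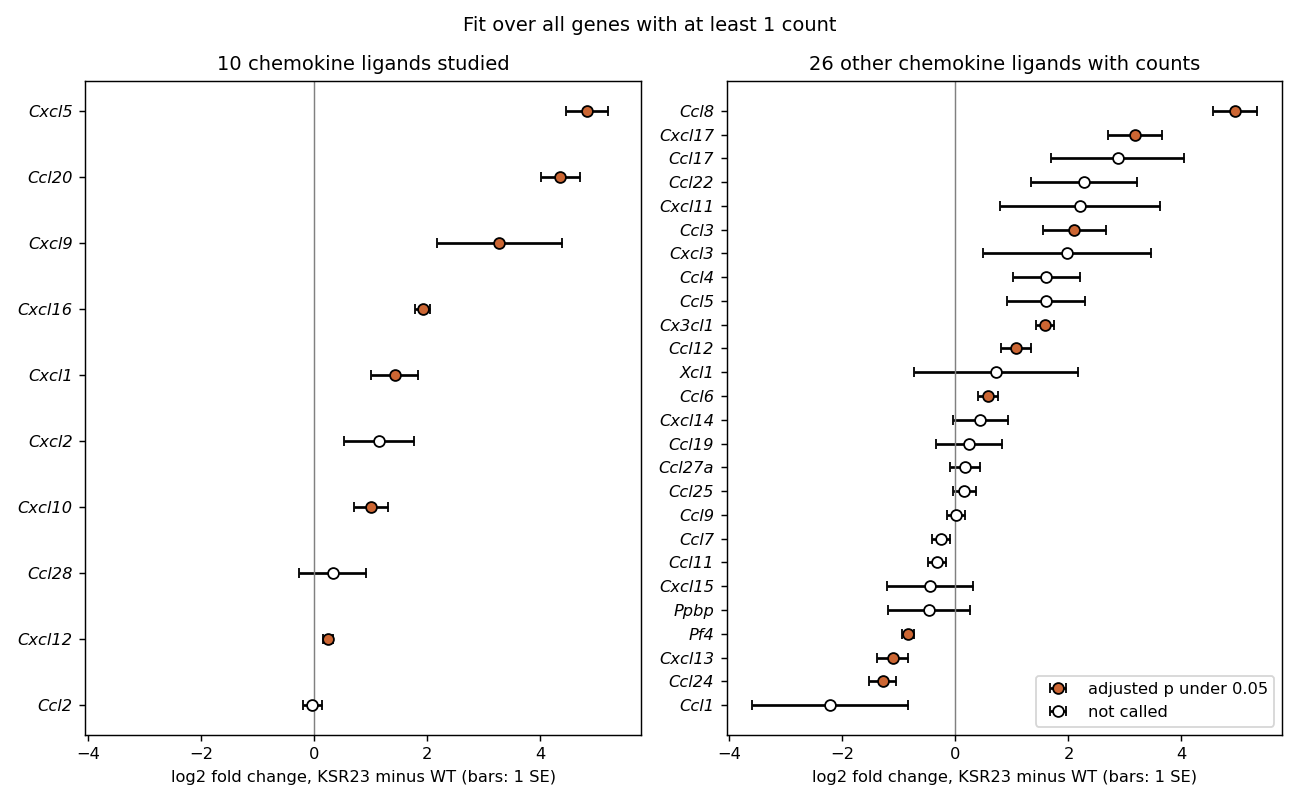
Log2 fold change (horizontal axis, KSR23 minus WT) of the 10 ligands at left and of 26 other chemokine ligand genes at right, from the fit over all genes with at least 1 count, with bars of 1 standard error (SE). Filled points passed an adjusted p of 0.05 and open points did not; Cxcl5 at 4.83 and Ccl20 at 4.36 lie far to the right of Ccl2 at -0.03.

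Promoter sequence from RefSeq on GRCm38.p6 was used for 7 of the 10 genes, without Cxcl5, Cxcl16 and Ccl2. The upstream bases of 5 of them are given 5′ to 3′ on the gene's strand, to show which of the low, inducible ligands carry an interferon or nuclear factor kappaB (NF-kappaB) type motif near the start, with the constitutive Cxcl12 beside them. They are chr5:92348890-92349139 (minus strand), chr5:90890995-90891240, chr5:90903649-90903870, chr1:83116516-83116765 and chr6:117168285-117168534 (plus strand), each ending at the base before the annotated gene. Capitals mark matches to the interferon response element, spelled GAAA, then 2 bases of any kind, then GAAA, or to the kappaB consensus, on either strand.
Cxcl10: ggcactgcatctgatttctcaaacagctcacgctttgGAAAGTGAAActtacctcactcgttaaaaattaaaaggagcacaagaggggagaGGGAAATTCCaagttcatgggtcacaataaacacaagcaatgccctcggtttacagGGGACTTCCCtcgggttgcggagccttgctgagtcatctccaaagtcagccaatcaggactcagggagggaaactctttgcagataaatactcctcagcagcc
Cxcl1: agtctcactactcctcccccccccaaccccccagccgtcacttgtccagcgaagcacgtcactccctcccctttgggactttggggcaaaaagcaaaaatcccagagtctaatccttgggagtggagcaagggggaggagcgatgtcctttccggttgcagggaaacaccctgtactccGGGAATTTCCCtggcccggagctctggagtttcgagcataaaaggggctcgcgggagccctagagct
Cxcl2: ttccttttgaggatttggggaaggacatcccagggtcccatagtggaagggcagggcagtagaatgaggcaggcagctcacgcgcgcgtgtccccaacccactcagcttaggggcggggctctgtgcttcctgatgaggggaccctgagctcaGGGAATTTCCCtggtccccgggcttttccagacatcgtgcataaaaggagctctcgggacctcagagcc
Ccl20: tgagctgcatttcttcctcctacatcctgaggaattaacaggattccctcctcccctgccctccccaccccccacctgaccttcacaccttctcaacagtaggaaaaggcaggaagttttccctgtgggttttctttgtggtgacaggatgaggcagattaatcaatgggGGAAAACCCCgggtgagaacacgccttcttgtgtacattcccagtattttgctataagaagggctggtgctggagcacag
Cxcl12: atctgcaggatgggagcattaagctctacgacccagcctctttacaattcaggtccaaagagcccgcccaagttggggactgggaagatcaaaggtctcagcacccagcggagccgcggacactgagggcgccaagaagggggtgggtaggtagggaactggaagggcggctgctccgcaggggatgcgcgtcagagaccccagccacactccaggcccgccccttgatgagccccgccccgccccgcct

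In the window from 250 bases before to 50 after the RefSeq start, Cxcl10 held 1 interferon response element, at -213 to -204, and 2 kappaB matches, at -159 to -150 and at -103 to -94. Cxcl1 and Cxcl2 each held 2 overlapping kappaB matches within the same run of bases, which began at -71 in Cxcl1 and at -97 in Cxcl2. Ccl20 held 1 kappaB match at -80 to -71. Cxcl9, Cxcl12 and Ccl28 held neither motif in this window, and the gamma activated site, spelled TTC, then 3 bases of any kind, then GAA, was in none of the 7. Of 32851 promoters of the same length, 3.44% held the interferon response element, 4.51% the kappaB consensus and 8.3% the gamma activated site. These are matches of letters only, and binding was not measured.

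Cxcl10 (chromosome 5, 92346638 to 92348889, minus strand, GRCm38) rose 2.03-fold. It had 0.386, 0.962, 0.702, 0.613 and 0.671 CPM in WT replicates 1 to 5 and 1.31, 1.16, 1.68, 1.59 and 1.02 CPM in KSR23 replicates 1 to 5. The lowest KSR23 mouse, replicate 5, was just above the highest WT mouse, replicate 2. The mean went from 0.667 ± 0.206 to 1.35 ± 0.281 CPM (SD, n = 5 each), a log2 fold change of 1 with an SE of 0.273 and an adjusted p of 0.0100 in edgeR's quasi-likelihood test. Exons of Cxcl10 overlap those of Art3 on the other strand, the strand setting of the counting is not given in the sources used here, and reads from the shared bases cannot be assigned with certainty. Art3 itself was at 4.00 ± 0.53 CPM in WT and 3.64 ± 0.837 CPM in KSR23 mice and was not called.

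Cxcl9 (chromosome 5, 92321347 to 92328079, minus strand), induced by interferon gamma and a neighbour of Cxcl10, was near the limit of detection in all mice. WT replicates 1 to 4 had no count, where 3 counts would be 0.0968 to 0.105 CPM, and WT replicate 5 had 1 count, or 0.0373 CPM. KSR23 replicates 1 to 5 had 1, 2, 4, 5 and 6 counts, or 0.0252, 0.0593, 0.224, 0.124 and 0.107 CPM. The single WT count put that mouse above KSR23 replicate 1, so the groups overlapped. Summed over the group, 1 count in WT against 18 in KSR23 mice gave a ratio of counts per scaled library size of 13.8, with a 95% counting interval of 2.18 to 576. In the fit without a low-count filter its adjusted p was 0.0344 (edgeR quasi-likelihood; exact permutation test of CPM, p = 0.0159), and this call was lost in 9 of 16 alternative settings, with adjusted p up to 0.132. Cxcl11, the third interferon-type ligand, annotated as a polymorphic pseudogene, had no more than 0.207 CPM in any mouse.

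The receptor of the interferon-type ligands, Cxcr3, was at 1.27 ± 0.488 CPM in WT and 0.93 ± 0.435 CPM in KSR23 mice and was not called (adjusted p = 0.307, edgeR). Ifng, the cytokine that induces Cxcl9, was listed with no more than 0.119 CPM in any mouse. The paper reports interferon gamma protein as significantly raised in the serum of KSR23 mice at P5, which pancreas RNA does not measure. Irf1 and Irf8, interferon regulatory factors, rose by 1.12 (SE 0.0839, adjusted p = 1.21e-08, edgeR) and 1.34 (SE 0.164, adjusted p = 5.71e-06) on the log2 scale.

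Cxcl5 (chromosome 5, 90759360 to 90761624, plus strand), a CXCR2 ligand, was low in every WT mouse and high in every KSR23 mouse. It had 0.35, 0.824, 0.246, 0.258 and 0.447 CPM in WT replicates 1 to 5, from 7 to 24 counts. In KSR23 replicates 1 to 5 it had 24.6, 6.02, 11, 8.07 and 11.1 CPM, from 196 to 978 counts. The lowest KSR23 mouse, replicate 2, stood well above the highest WT mouse, also replicate 2, and KSR23 replicate 1 stood apart from the other 4 KSR23 mice. The mean went from 0.425 ± 0.237 to 12.2 ± 7.28 CPM, a log2 fold change of 4.83 with an SE of 0.393 and an adjusted p of 3.53e-08 (edgeR). Without KSR23 replicate 1 the log2 fold change was 4.39. Within Cxcl5, 98.8% of 75-base windows of the transcript occurred in no other annotated gene.

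Cxcl1 (chromosome 5, 90891241 to 90893115, plus strand), another CXCR2 ligand, was at a low level that was 2.7 times the WT mean in KSR23 mice. It had 0.14, 0.275, 0.211, 0.452 and 0.298 CPM in WT replicates 1 to 5 and 1.11, 0.504, 0.448, 0.996 and 0.661 CPM in KSR23 replicates 1 to 5. Only WT replicate 4 and KSR23 replicate 3 crossed, by a margin of less than 1 count. In the fit without a low-count filter the log2 fold change was 1.43 with an SE of 0.416 and an adjusted p of 0.0157 (edgeR; exact permutation test of CPM, p = 0.0159). Without KSR23 replicate 1, the highest mouse, the adjusted p was 0.0574.

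Cxcl2 (chromosome 5, 90903871 to 90905938, plus strand), the third CXCR2 ligand of the group, was the lowest of these 3. It had 0.14, 0.206, 0.176, 0.161 and 0 CPM in WT replicates 1 to 5, from 0 to 6 counts. KSR23 replicates 1 to 5 had 0.629, 0.267, 0.112, 0.274 and 0.232 CPM, from 2 to 25 counts. KSR23 replicate 1 was the highest mouse and KSR23 replicate 3 lay below 4 of the WT mice. The groups overlapped and the difference did not pass (log2 fold change 1.15, SE 0.619, adjusted p = 0.201 in edgeR's fit without a low-count filter; exact permutation test of CPM, p = 0.0714, and p = 0.0159 without KSR23 replicate 3).

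The ratio of 2 ligands in the same mouse depends little on how libraries are scaled, and 6 such ratios were compared, with p-values adjusted over the 6. Log2 of Cxcl2 over Cxcl5 was -1.35 ± 1.10 in WT and -5.05 ± 0.68 in KSR23 mice, a difference of -3.70 (exact permutation test, p = 0.00794, adjusted p = 0.0159). Cxcl5 thus rose by more than Cxcl2. Log2 of Cxcl1 over Cxcl2 was 0.86 ± 1.06 in WT and 1.21 ± 0.42 in KSR23 mice, and this difference of 0.35 did not pass (exact permutation test, p = 0.516). That of Cxcl9 over Cxcl10 differed by 0.24 and did not pass (exact permutation test, p = 0.492), with Cxcl9 near its limit of detection.

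Cxcr2, the receptor of the neutrophil-type ligands, was at 0 to 0.211 CPM in WT and 0.722 to 2.52 CPM in KSR23 mice, without overlap (log2 fold change 3.72, SE 0.508, adjusted p = 9.37e-06 in edgeR's fit without a low-count filter). Cxcr1 had no count in any mouse. Of 10 neutrophil marker genes listed, 9 were among the counted symbols, which leaves out Ly6g. Of these 9 markers 7 were higher and 0 lower in the filtered fit, beside 16.2% and 14.8% of all genes. Their summed level was 14 to 45.1 CPM in WT mice and 62.4, 51.1, 442, 48 and 105 CPM in KSR23 replicates 1 to 5. KSR23 replicate 3, with the highest marker sum, had 11 CPM of Cxcl5 and the lowest Cxcl1 and Cxcl2 of its group, and KSR23 replicate 1, with the highest Cxcl5, Cxcl1 and Cxcl2, had a marker sum of 62.4 CPM. Without KSR23 replicate 3 the log2 fold change of Cxcl5 was 4.87. The part of neutrophil RNA in these ligand values was not tested.

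Cxcl16 (chromosome 11, 70453983 to 70459984, minus strand), a ligand made as a membrane protein and bound by CXCR6, rose 3.81-fold with little spread. It had 4.91, 5.12, 4.5, 5.74 and 4.36 CPM in WT replicates 1 to 5 and 21.8, 16.8, 21.3, 19.7 and 14.2 CPM in KSR23 replicates 1 to 5. No KSR23 mouse came near the WT range. The mean went from 4.92 ± 0.55 to 18.8 ± 3.24 CPM, a log2 fold change of 1.92 with an SE of 0.13 and an adjusted p of 3.56e-09 (edgeR). Its exons overlap those of Zmynd15 on the other strand, so reads from the shared bases cannot be assigned with certainty. Zmynd15 was at 0.387 ± 0.237 CPM in WT and 1.11 ± 0.445 CPM in KSR23 mice (log2 fold change 1.47, SE 0.413, adjusted p = 0.0122 in edgeR's fit without a low-count filter), both below the level of Cxcl16.

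Adam10, the protease that sheds CXCL16 from the membrane, was higher by 0.26 on the log2 scale (SE 0.0854, adjusted p = 0.0263), and Adam17, a related sheddase, was not called. Cxcr6 was at 1.49 ± 0.429 CPM in WT and 1.69 ± 0.823 CPM in KSR23 mice and was not called (adjusted p = 0.784, edgeR).

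Cxcl12 (chromosome 6, 117168535 to 117181367, plus strand) was the most abundant ligand and moved little. It had 51.8, 58.7, 52.7, 51 and 49.3 CPM in WT replicates 1 to 5 and 71.5, 58.8, 64.4, 72.2 and 48.8 CPM in KSR23 replicates 1 to 5. The groups overlapped: KSR23 replicate 5 was below every WT mouse and the other 4 were above every WT mouse. The mean went from 52.7 ± 3.57 to 63.1 ± 9.72 CPM, a log2 fold change of 0.26 with an SE of 0.0939 and an adjusted p of 0.0436 (edgeR). That call was lost in 9 of 19 alternative settings, with adjusted p up to 0.123 without KSR23 replicate 1, and the exact permutation test of its CPM gave p = 0.0794. Its receptors Cxcr4 (0.77 ± 0.285 and 1.31 ± 0.519 CPM in WT and KSR23 mice) and Ackr3 (13.4 ± 2.24 and 11.2 ± 2.31 CPM) were not called. Without KSR23 replicate 2, Cxcr4 was called higher (log2 fold change 0.91, adjusted p = 0.0335). Dpp4, a peptidase that trims the ends of CXCL12 and CXCL10, fell by 0.59 on the log2 scale (SE 0.0732, adjusted p = 7.57e-06), with 36.3 to 41.9 CPM in WT and 23.7 to 27.9 CPM in KSR23 mice. Log2 of Cxcl10 over Cxcl12 was higher in KSR23 mice by 0.74 (exact permutation test, p = 0.00794, adjusted p = 0.0159). Cxcl10 thus rose by more than Cxcl12. This did not hold for every homeostatic or tissue ligand. Cxcl16 was at 3.81 times its WT mean, above the 2.03 times of Cxcl10, and Ccl28 was not called.

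Ccl28 (chromosome 13, 119623819 to 119654359, plus strand), a ligand of mucosal epithelia for CCR10 and CCR3, varied more within groups than between them. It had 0.315, 1.24, 0.0702, 0.29 and 0.373 CPM in WT replicates 1 to 5 and 1.01, 0.267, 1.17, 0.174 and 0.393 CPM in KSR23 replicates 1 to 5. The highest mouse of all was WT replicate 2, and the 2 groups overlapped over nearly their whole range. Means were 0.457 ± 0.451 and 0.603 ± 0.456 CPM, with a log2 fold change of 0.33 and an SE of 0.589 (adjusted p = 0.732, edgeR's fit without a low-count filter). Leaving out 1 mouse moved this log2 fold change to between 0.01, without KSR23 replicate 3, and 1.14, without WT replicate 2, and it was not called in either case. Ccr10 and Ccr3 had at most 0.186 CPM in any mouse.

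Ccl20 (chromosome 1, 83116766 to 83119167, plus strand) went from near the limit of detection to a clear signal. It had 0.0701, 0.206, 0.105, 0.129 and 0.0745 CPM in WT replicates 1 to 5, from 2, 6, 3, 4 and 2 counts. In KSR23 replicates 1 to 5 it had 3.12, 2.58, 2.57, 2.59 and 1.73 CPM, from 124, 87, 46, 104 and 97 counts. Every KSR23 mouse was far above every WT mouse. The mean went from 0.117 ± 0.0553 to 2.52 ± 0.498 CPM (exact permutation test, p = 0.00794), and the log2 fold change was 4.36 with an SE of 0.339 and an adjusted p of 2.23e-09 in edgeR's fit without a low-count filter. On summed counts per scaled library size the ratio was 20.7, with a 95% counting interval of 12.8 to 35.8. Leaving out any mouse kept its log2 fold change between 4.24 and 4.66. Log2 of Ccl20 over Ccl28, both products of epithelia, differed by 3.44 between the groups (exact permutation test, p = 0.00794, adjusted p = 0.0159). Ccr6, its receptor, was at 0 to 0.245 CPM in WT and 0.0296 to 0.327 CPM in KSR23 mice and was not called.

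Ccl2 (chromosome 11, 82035571 to 82037453, plus strand) did not differ between the groups beyond its spread. It had 3.89, 4.81, 3.51, 5.97 and 4.55 CPM in WT replicates 1 to 5 and 4.18, 4.5, 3.92, 6.1 and 3.7 CPM in KSR23 replicates 1 to 5. Both groups spanned nearly the same range. The log2 fold change was -0.02 with an SE of 0.173 (adjusted p = 0.946, edgeR), and it stayed between -0.16 and 0.1 in the 19 alternative settings. Its receptor Ccr2 was at 1.86 to 3 CPM in WT and 3.57 to 9.01 CPM in KSR23 mice, a log2 fold change of 1.03 (SE 0.236, adjusted p = 0.00292). Log2 of Ccl2 over Cxcl12 differed by -0.27 and did not pass (exact permutation test, p = 0.167).

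Levels were compared between genes as CPM per kb of the longest coding transcript, a scale that depends on the transcript chosen. In WT mice Cxcl12 led with 9.37 ± 0.636 CPM per kb, followed by Ccl2 with 5.59 ± 1.17, Cxcl16 with 1.83 ± 0.203 and Cxcl10 with 0.493 ± 0.152. The ranges of these 4 over the mice were apart from each other. Cxcl1 (0.289), Cxcl5 (0.27), Ccl28 (0.122), Ccl20 (0.0825), Cxcl2 (0.0735) and Cxcl9 (0.00258) followed, and from Cxcl10 down each overlapped with the next. In KSR23 mice Cxcl12 had 11.2 ± 1.73 CPM per kb. Cxcl5 came next by its mean of 7.72 ± 4.62, from rank 6 in WT to rank 2. That mean takes in KSR23 replicate 1, which reached 15.6 CPM per kb, and the rank without this mouse was not computed. Cxcl16 (6.95 ± 1.19) and Ccl2 (5.51 ± 1.17) followed, and each of these 4 overlapped with the next. Ccl20 (1.78 ± 0.352) moved from rank 8 to rank 5 and did not overlap with Ccl2. Cxcl10 (0.999), Cxcl1 (0.78), Cxcl2 (0.163), Ccl28 (0.161) and Cxcl9 (0.0373) closed the order, with a gap in the ranges between Cxcl1 and Cxcl2 only.

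**Figure D3:**
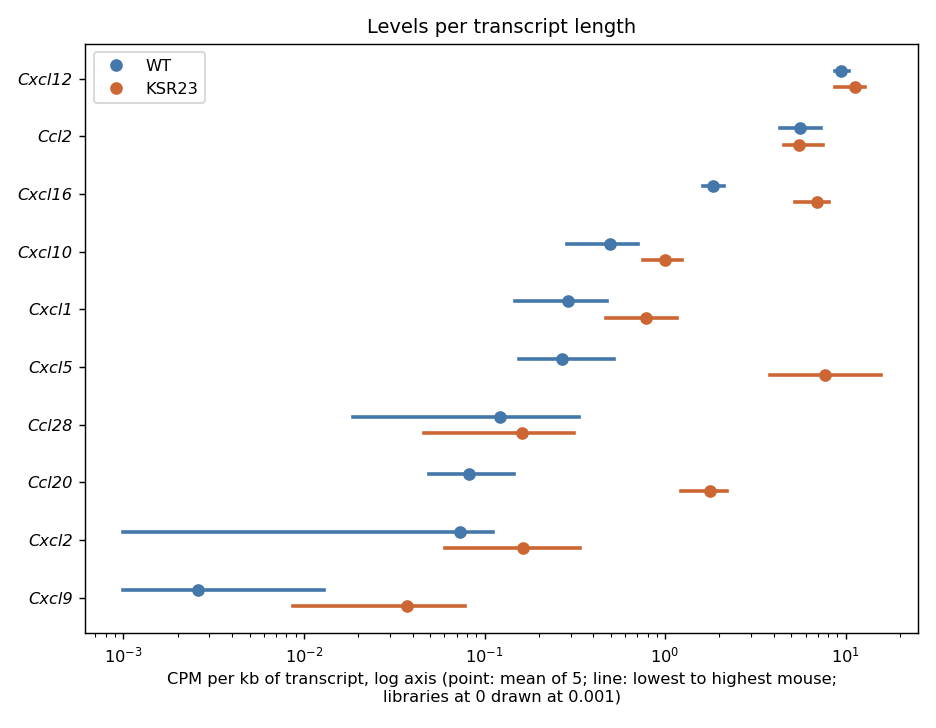
CPM per kb of transcript (horizontal axis, log scale) of each ligand in WT and KSR23 mice, where the point is the mean of 5 mice and the line runs from the lowest to the highest mouse, with libraries at 0 drawn at 0.001. Cxcl5 and Ccl20 move from the low end of the WT order to 7.72 and 1.78 CPM per kb, and Cxcl12 is the highest in both groups.

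A chemokine cluster on chromosome 5 holds 5 of the ligands, and their neighbours did not all move the same way. In chromosomal order the neutrophil-type end holds Cxcl5, Ppbp, Pf4, Cxcl3, Cxcl15, Cxcl1 and Cxcl2. Between Cxcl5 and Cxcl1, Pf4, a platelet chemokine, fell from 34.1 ± 3.24 to 19.2 ± 3.42 CPM (log2 fold change -0.83, SE 0.114, adjusted p = 2.26e-05, edgeR), and Ppbp, Cxcl3 and Cxcl15 were not called. Without KSR23 replicate 3, Ppbp, also a platelet chemokine, was called lower at -1.85 (adjusted p = 0.0292). On chromosome 11, Ccl2 is followed by Ccl7, Ccl11, Ccl12 and Ccl8. Ccl7 (-0.26, SE 0.158) and Ccl11 (-0.33, SE 0.158) were not called, although Ccl11 was called lower without WT replicate 5 (-0.47, adjusted p = 0.00905). Ccl12, a monocyte ligand, rose from 2.01 ± 0.698 to 4.23 ± 1.59 CPM (log2 fold change 1.08, SE 0.27, adjusted p = 0.00581). Ccl8 had 0.14, 0.103, 0.105, 0.0645 and 0 CPM in WT replicates 1 to 5 and 3.42, 2.31, 2.85, 3.11 and 1.84 CPM in KSR23 replicates 1 to 5. It rose by 4.95 on the log2 scale, beside 4.83 for Cxcl5 (SE 0.391, adjusted p = 2.88e-09 in edgeR's fit without a low-count filter).

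**Figure D4:**
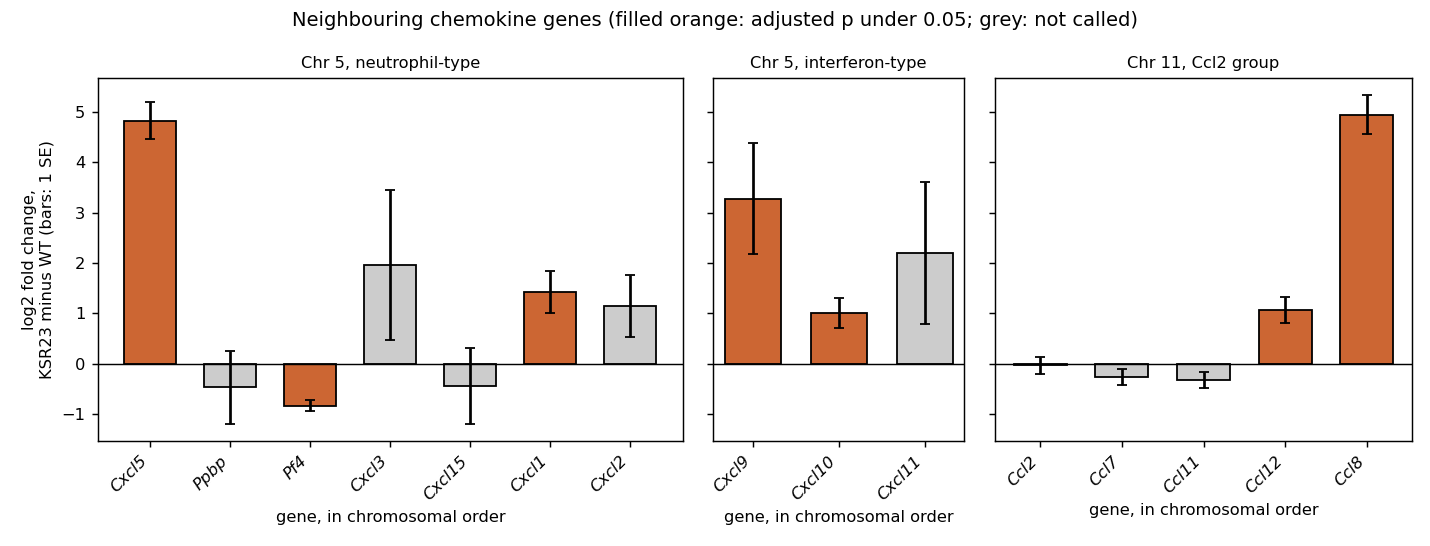
Log2 fold change (vertical axis, KSR23 minus WT, bars of 1 SE) of neighbouring chemokine genes in chromosomal order, from the fit over all genes with at least 1 count. Orange bars passed an adjusted p of 0.05 and grey bars did not. Cxcl5 at 4.83 lies in the same group as Pf4 at -0.84, with Ppbp between them. Ccl2 at -0.03 lies in the same group as Ccl8 at 4.95.

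Of 31 other chemokine ligand genes listed, 11 were in the filtered fit, where 3 were higher, 3 lower and 5 not called, beside 16.2% of all genes higher and 14.8% lower. Cx3cl1, the membrane-bound ligand of CX3CR1, rose from 4.02 ± 1.2 to 12.1 ± 1.35 CPM (log2 fold change 1.59, SE 0.16, adjusted p = 5.04e-07), and Ccl6, made by myeloid cells, was called at 0.58 but not in 5 of 19 alternative settings. Ccl24, an eosinophil ligand, fell by 1.28 (SE 0.234) and Cxcl13, the B cell ligand, by 1.11 (SE 0.288). In the fit over all genes with a count, 26 of the 31 were tested, 6 were higher and 3 lower, beside 12.0% and 10.9% of all genes, the added ones being Ccl8, Cxcl17 (3.18) and Ccl3 (2.1). Ccl21a, Ccl21b, Ccl21c, Ccl26 and Ccl27b had no count in any mouse. Of 75-base windows of Ccl21a, Ccl21b and Ccl27b, 38.7% or less occur in no other annotated gene, and reads with several alignments were not counted.

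Of 23 chemokine receptor genes listed, 11 were in the filtered fit, with 3 higher and 0 lower, beside 16.2% and 14.8% of all genes. Cx3cr1, the receptor of CX3CL1 on macrophages, rose by 1.31 (SE 0.157, adjusted p = 4.44e-06), Ccr2 by 1.03 and Ccr1 by 0.75 (SE 0.146, adjusted p = 0.000831). In the fit over all genes with a count, 22 were tested, 5 were higher, Cxcr2 among them, and 0 were lower, beside 12.0% and 10.9% of all genes.

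Among 9 genes of cytokines that induce these ligands, none passed the filter, and in the fit over all genes with a count 2 were higher and 0 lower, beside the same shares of all genes. Tnf had 0 to 0.315 CPM in WT and 0.377 to 0.921 CPM in KSR23 mice (log2 fold change 2.89, SE 0.712, adjusted p = 0.00509). WT replicate 1 held 9 of the 12 WT counts of Tnf, and without it the log2 fold change was 4.45. Il1b had 0.0323 to 0.526 CPM in WT and 1.08 to 1.96 CPM in KSR23 mice (2.41, SE 0.413, adjusted p = 0.000165). Il17a was listed at 0 in every WT mouse and at no more than 0.0536 CPM in KSR23 mice, and Il22 at no more than 0.112 CPM in any mouse. These are RNA levels of the pancreas alone. For serum protein at P5, the paper names IL-22, interferon gamma and IL-1 beta as significantly raised in KSR23 mice, and does not name IL-17 there. Of 15 regulators of chemokine transcription or mRNA decay, 12 were higher and 0 lower in the filtered fit, beside 16.2% and 14.8% of all genes. Socs3, an inhibitor of STAT3 signaling, rose by 2.65 (SE 0.153) and Zc3h12a, a ribonuclease that degrades cytokine and chemokine mRNA, by 2.51 (SE 0.251). Nfkbiz, a nuclear NF-kappaB cofactor, rose by 1.87 (SE 0.23) and Relb, an NF-kappaB subunit, by 1.36 (SE 0.167), all with adjusted p of 6.32e-06 or less in edgeR's test.

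Marker genes of several cell types also differed between the groups, and their part in the ligand values was not tested. Calls are from the filtered fit unless stated, where 16.2% of all genes were higher and 14.8% lower. In the fit over all genes with a count these shares were 12.0% and 10.9%. Of 7 macrophage markers counted, 5 were higher and C1qa was lower, with a sum of 262 to 320 CPM in WT and 285 to 408 CPM in KSR23 mice. Duct markers, 5 of 6 higher, summed to 1060 to 1170 CPM in WT and 1710 to 1860 CPM in KSR23 mice. The stromal sum, 6880 to 8610 CPM in WT and 6330 to 8320 CPM in KSR23 mice, and the endothelial sum, 159 to 175 and 154 to 171 CPM, overlapped between the groups. Within these lists Pdgfrb and Kdr were higher and Cdh5 and Tek lower. Of 9 T and NK cell markers, which summed to 5.23 to 6.39 CPM and 3.6 to 6.66 CPM, Cd3e was lower (4.01 and 1.45 CPM in the mean) and Cd3g higher in the filtered fit, and Cd3d, Cd8a and Klrb1c were higher in the fit over all genes with a count. None of 4 B cell markers was called. Acinar markers, 4 of 6 lower and Prss2 higher, summed to 201000 to 224000 CPM in WT and 150000 to 185000 CPM in KSR23 mice. Islet markers, 4 of 5 lower and Ppy higher, summed to 7330 to 10500 CPM in WT and 4470 to 5570 CPM in KSR23 mice. The tally of alignments that were not unique was 49.6 to 53.7% of all gene counts and tallies in WT libraries and 38.5 to 42.5% in KSR23 libraries. This need not be a share of reads.

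The genes whose log2 CPM followed each ligand most closely over the 10 libraries were ranked by Pearson's r among 13881 genes, as a description in which the group difference itself takes part. For Cxcl5 they were Sema4a (r = 0.991), Dcaf8 (0.988) and Tgtp1 (0.985), the last an interferon-inducible GTPase. Closest to Cxcl16 were Tnfrsf1b (0.992), a TNF receptor, and Clu and Spp1 (both 0.991). Cxcl10 was followed by Mreg (0.965), Mms19 (0.956) and Cyp4b1 (0.954), and Cxcl12 by Ubap1 (0.924), Grn (0.915) and Il21r (0.914). For Ccl2, which did not differ between the groups, the closest were Helz (0.905), Cadm1 (0.882) and Podxl2 (0.843).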

How the data were processed

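RNA from the pancreas of 5 WT and 5 KSR23 mice was primed with oligo-dT (SMART-Seq v4) and read as single-end 75 bp reads. The authors aligned reads to mm10 with TopHat 2.1.0, and the deposited counts, made with htseq-count 0.6.1p1 by strict intersection, are whole reads per gene with a unique alignment and are not normalized. The annotation file and strand setting are not given in the sources used here. No molecular identifiers are named, so intervals and floors cover counting error only.

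Genes that reached 5 counts in each library were fitted with edgeR 4.0.16 in R 4.3.3 (TMM scaling, quasi-likelihood F test, Benjamini-Hochberg adjustment). SE was the log2 fold change over the square root of F, and log2 CPM used a prior count of 2. Ligands under the filter were compared by two-sided exact permutation of CPM and by the same fit over all genes with at least 1 count. Gene positions came from GENCODE M21 (GRCm38). Other settings tried were DESeq2 1.42.0, the likelihood ratio test, other scalings and filters, a replicate block, and leaving out each mouse.

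The ligands and gene lists were chosen with earlier results of these data known. Of each list, the largest called genes and the receptors of the ligands are named, and Ccl8, Cxcl17, Ccl3, Ccl7, Ccl11, Ppbp, Tnf, Il1b, Art3 and Zmynd15 were named after their values were seen. The values of 2 listed genes are not reported here by themselves. Fits without a low-count filter under other settings were added after seeing the data.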

Additional observations from a re-analysis of the deposited data

Results flagged for a closer look

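Of 56 groups of 5 mice examined for a sample far from the other 4, 5 had one. Chance gives about 1 in 20, or 2.8 here, a rate that may not hold at few counts, as for Cxcl9 and Il12b. Cxcl5 was 24.6 CPM in KSR23 replicate 1, beside 6.02 to 11.1 CPM in the other KSR23 mice. Ccl28 was 1.24 CPM, from 36 counts, in WT replicate 2, beside 0.0702 to 0.373 CPM in the other WT mice. Cxcl9 was 0.0373 CPM in WT replicate 5, which is 1 count, beside 0 in the other WT mice. Il12b was 0.24 CPM, from 7 counts, in WT replicate 2, beside 0 to 0.0645 CPM in the other WT mice. The summed level of neutrophil marker genes was 442 CPM in KSR23 replicate 3, beside 48 to 105 CPM in the other KSR23 mice.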

How the results depend on the processing

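Cxcl5, Cxcl16 and Cxcl10 in the filtered fit, and Ccl20 in the fit over all genes with a count, stayed past the threshold in the same direction under the 18, 19, 19 and 17 alternatives tried for them, with log2 fold changes of 4.39 to 5.22, 1.85 to 2.03, 0.85 to 1.17 and 4.24 to 4.66. In the fit over all genes with a count, Cxcl10 missed the threshold without KSR23 replicate 4. Cxcl12 and Cxcl9 each lost their call in 9 settings, and Cxcl1 in 1. The number of ligands called higher was 4 in the filtered fit and 7 with no low-count filter. When 1 mouse was left out it was 3 to 4 in the filtered fit and 4 to 7 with no low-count filter. Over all genes, 2049 were lower, and 1161 with library size alone, which moved the median log2 fold change to 0.087. When 1 mouse was left out, 3497 to 4173 genes were called, 1846 to 2210 higher and 1651 to 1973 lower. The cause of these shifts was not tested.

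The labels do not say whether replicate numbers pair the mice. Deviations from the group means correlated between mice of the same number by -0.11, 0.07, -0.06, -0.10 and -0.06. Such values cannot settle whether any of these mice shared a litter. With the replicate block, 3 ligands were higher and Cxcl12 missed the threshold. Cxcl9, Cxcl2, Cxcl1, Ccl20 and Ccl28 had under 5 counts in at least 1 library, which limits their precision.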
